A study of Mus musculus with 4 samples.

Results

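The teashirt zinc finger genes Tshz1, Tshz2 and Tshz3 were followed in mouse hippocampus at postnatal day 2. They were taken as every probe set whose only annotated gene symbol was one of these 3, which gave 6 probe sets out of 45037 on the array: 2 for Tshz1, 3 for Tshz2 and 1 for Tshz3. The 3 genes stand among 18193 genes that had a probe set of their own. The tissue came from pups in which the gene of the transcription factor ZBTB20 was knocked out and from littermate controls labelled wildtype, and the study sought genes that depend on the factor as the hippocampus develops. Each group had 2 Affymetrix arrays of total RNA, numbered replicate 1 and replicate 2. The labels used here do not give the strain, the sex, the cells in which the allele was lost or the number of animals behind an array, so the spread between arrays may be partly technical. The family was chosen by the knockout-minus-control differences of Tshz2 and Tshz3 within each replicate number, known from earlier results of these arrays, and Tshz1 joined them as the remaining family member. The differences between the labelled groups are therefore given as a description, with no test.

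Teashirt was first described in Drosophila, where it is needed for the identity of the trunk segments. The vertebrate proteins carry widely spaced zinc fingers and a homeodomain, and in cell assays they repress transcription. In the mouse, Tshz1 is needed for interneurons to reach their place in the olfactory bulb and for the soft palate, and Tshz3 is needed for smooth muscle of the ureter and for the deep-layer projection neurons of the cortex. Tshz2 is used as a marker of near-projecting neurons in the deep layers of the cortex and is strong in retrosplenial cortex.

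The arrays came on 2 scales that followed the replicate number. The trimmed mean signal (2% left out at each end) was 497 on the knockout and 498 on the control array of replicate 1, and 156 and 158 on those of replicate 2. Across probe sets, Spearman's correlation was 0.926 within replicate 1 and 0.986 within replicate 2, and between 0.818 and 0.832 for arrays of different number. Each array labelled knockout was therefore set against the array labelled control of the same number, as pair 1 and pair 2. A difference within a pair rests on 1 array against 1 array and has no replicate error of its own. Of the 9 probe sets of Zbtb20, 0 were lower on the array labelled knockout in both pairs, 4 were higher in both, and 5 differed in sign between the pairs. The widest difference among them was at 1443471_at, with 2412 on knockout 1 against 4939 on control 1, and 592 on knockout 2 against 284 on control 2 (log2 differences of -1.02 and 0.98). Their place relative to the deleted part is unknown here, so they do not settle the genotype labels. Directions follow the labels as given, and if the labels of a pair were exchanged, every difference within that pair would turn its sign. Whether they were was not tested.

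Tshz2 and Tshz3 moved together in these arrays, and in opposite directions in the 2 pairs, so the promoters of these 2 genes are shown. The 250 bases before the start of each gene were read from RefSeq on GRCm38.p6, both on the plus strand, at chr2:169632259-169632508 for Tshz2 and chr7:36697868-36698117 for Tshz3. Capitals mark the GC box letters GGGCGG, or CCGCCC on the other strand, a motif bound by Sp-family factors.
Tshz2: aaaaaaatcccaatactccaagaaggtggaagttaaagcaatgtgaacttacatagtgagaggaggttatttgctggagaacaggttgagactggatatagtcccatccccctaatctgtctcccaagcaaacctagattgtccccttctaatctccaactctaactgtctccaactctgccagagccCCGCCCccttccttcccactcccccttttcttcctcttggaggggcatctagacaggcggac
Tshz3: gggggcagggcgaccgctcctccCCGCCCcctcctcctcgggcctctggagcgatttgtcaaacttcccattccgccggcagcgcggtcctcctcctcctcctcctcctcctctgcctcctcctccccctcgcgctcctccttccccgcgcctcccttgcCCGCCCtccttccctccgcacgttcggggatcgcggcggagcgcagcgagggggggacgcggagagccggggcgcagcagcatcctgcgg
The GC box was found at 1 place in Tshz2 and at 2 in Tshz3, and it was in 32.7% of 32851 mouse promoters of the same length. Of 5 other motifs searched on both strands, the CCAAT box (CCAAT, in 33.8% of promoters) was found 1 time in Tshz2 and 0 times in Tshz3. The others were found 0 times in either window: the TATA box (TATAAA, in 12.4%), the E-boxes CACGTG (6.02%) and CAGATG (14.4%), and the AP-1 site TGACTCA (4.46%). The windows differed in base composition, with 48.8% G and C and 2 CG dinucleotides in Tshz2, and 74% and 27 in Tshz3, against medians of 52.4% and 6 over all promoters. The arrays do not measure binding at these letters.

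Tshz3 had its lower signal on the array labelled knockout in pair 1 and on the array labelled control in pair 2. Its probe set 1435337_at had a signal of 577.5 on the knockout array and 2764 on the control array of replicate 1, and of 712 on the knockout array and 115 on the control array of replicate 2. The high arrays were thus control 1 and knockout 2, and the low arrays knockout 1 and control 2. The knockout-to-control ratio of signals was 0.209 in pair 1 and 6.20 in pair 2. As differences of log2(signal + 32.6), a scale on which changes of dim genes are understated, these were -2.20 and 2.34. The position of the probe set among all on its array does not depend on the scale: Tshz3 lay at percentile 75.7 on knockout 1 against 94.5 on control 1, and at 94.5 on knockout 2 against 64.7 on control 2.

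The Tshz2 probe sets all had the within-pair directions of Tshz3. For 1435385_at, the brightest of the 3, the signal was 603 on the knockout and 2347 on the control array of replicate 1, and 606 on the knockout and 112 on the control array of replicate 2. For 1428026_at it was 128 on knockout 1 against 680 on control 1, and 469 on knockout 2 against 75.8 on control 2. For 1459250_at it was 4.2 on knockout 1 against 178 on control 1, and 157 on knockout 2 against 28.1 on control 2. Control 1 and knockout 2 were the high arrays of their pair at every one of these probe sets. Both low values of 1459250_at lay under the 20th percentile of their array (23.8 on knockout 1 and 35.0 on control 2), so the size of its ratios, 0.0236 in pair 1 and 5.59 in pair 2, rests on signals near the bottom of the scale. The ratios were 0.257 and 5.41 at 1435385_at and 0.188 and 6.19 at 1428026_at.

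On the log2 scale the 3 Tshz2 probe sets averaged -2.19 ± 0.31 in pair 1 and 2.00 ± 0.31 in pair 2 (SD over 3 probe sets, which share their arrays and are not replicates of the condition). The difference in pair 2 minus that in pair 1 was 4.05 at 1435385_at, 4.36 at 1428026_at and 4.16 at 1459250_at, beside 4.53 for Tshz3. Among all 45037 probe sets ordered by this quantity, which is made from the values that chose the genes, Tshz3 stood at position 2 from the highest and the Tshz2 probe sets at positions 3, 5 and 7. In pair 1 the 4 probe sets stood at positions 16, 62, 72 and 190 from the lowest, and in pair 2 at positions 4, 5, 7 and 17 from the highest.

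Tshz1 did not share these directions. At 1427233_at, the brighter of its 2 probe sets, the signal was 933 on the knockout and 1114 on the control array of replicate 1, and 144 on the knockout and 247 on the control array of replicate 2. The array labelled knockout was the lower one in both pairs, with ratios of 0.838 and 0.582 and log2 differences of -0.25 and -0.66. At 1427232_at the signal was 656 on knockout 1 against 499.9 on control 1, and 122 on knockout 2 against 112 on control 2, so the array labelled knockout was the higher one in both pairs. Its ratios were 1.31 and 1.08, and its log2 differences 0.37 and 0.09. The 2 probe sets are annotated to the same sequence record and still went opposite ways, so the direction of Tshz1 was not settled by these arrays. On pair averages Tshz1 was at 0.06 ± 0.44 in pair 1 and -0.29 ± 0.53 in pair 2 (SD over 2 probe sets).

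**Figure D1:**
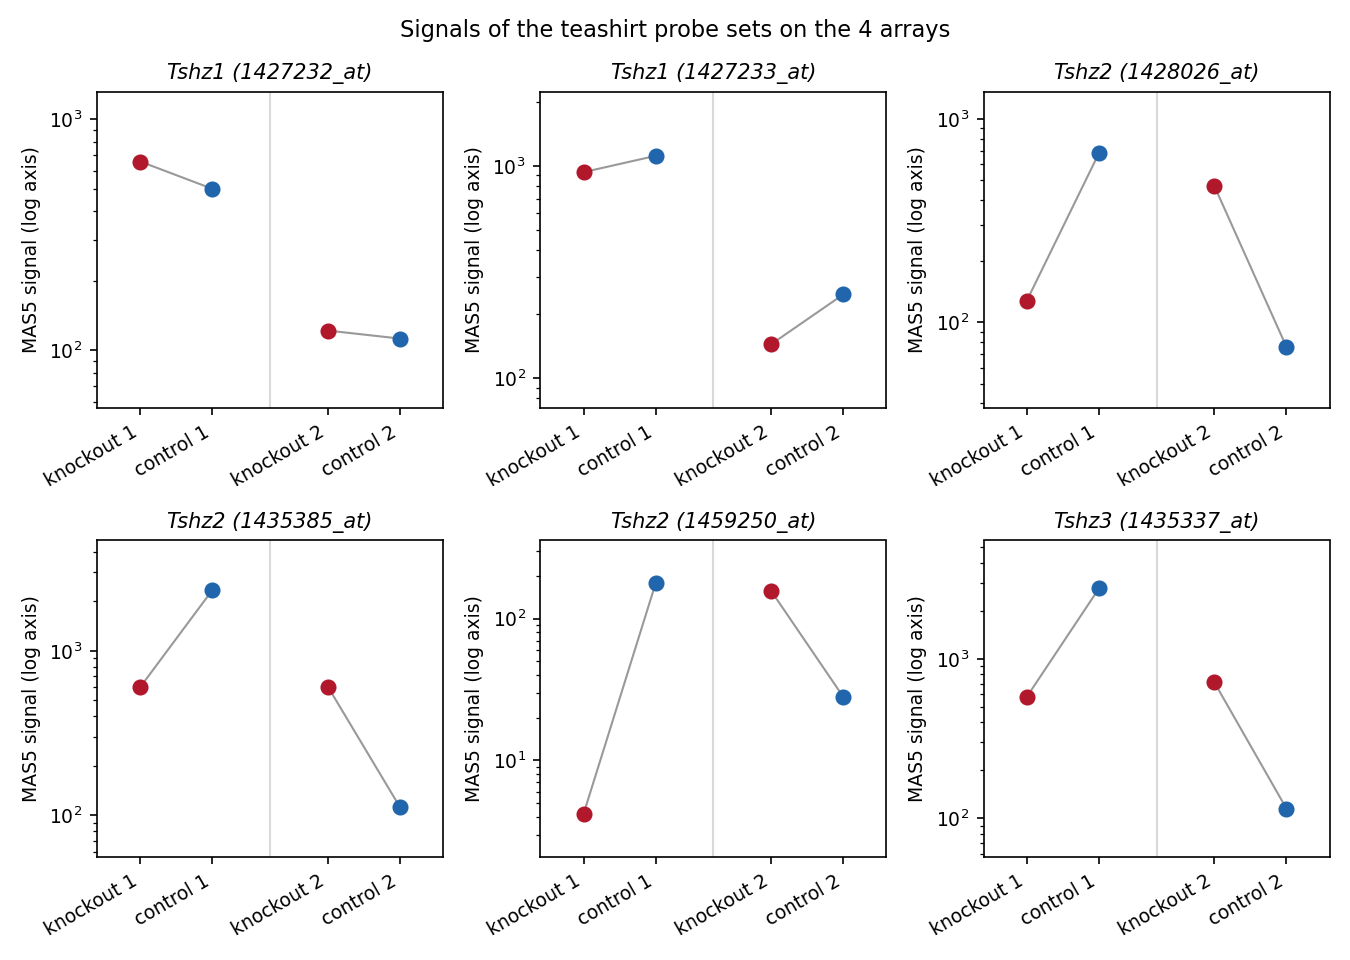
MAS5 signal (log axis, a range of its own in each panel) of the 6 teashirt probe sets on the 4 arrays; each point is 1 array, red for the arrays labelled knockout and blue for those labelled control, and a line joins the arrays of 1 replicate number. The Tshz2 and Tshz3 lines climb toward control 1 in the first pair and drop toward control 2 in the second, while each Tshz1 probe set leans the same way in both pairs.

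Here and below, over 2-fold means a difference of log2(signal + 32.6) beyond 1 either way, not a ratio of signals. Of the 6 teashirt probe sets, 4 were over 2-fold lower in pair 1 and over 2-fold higher in pair 2, and these were the 4 of Tshz2 and Tshz3. Among all 45037 probe sets, 0.06% (27) met that description, which is the pattern by which the family was picked. Over 2-fold lower in pair 1 were 6.48% of all probe sets, and over 2-fold higher in pair 2 were 0.153%. The reverse pattern, over 2-fold higher in pair 1 and over 2-fold lower in pair 2, was met by 32 probe sets. On this log2 scale, which understates changes of dim genes, 0 probe sets were over 2-fold apart in the same direction in both pairs. Beside the 4 teashirt probe sets, the 27 held 4 of Nr4a2, 5 without a single gene symbol, and 1 each of 14 other genes.

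**Figure D2:**
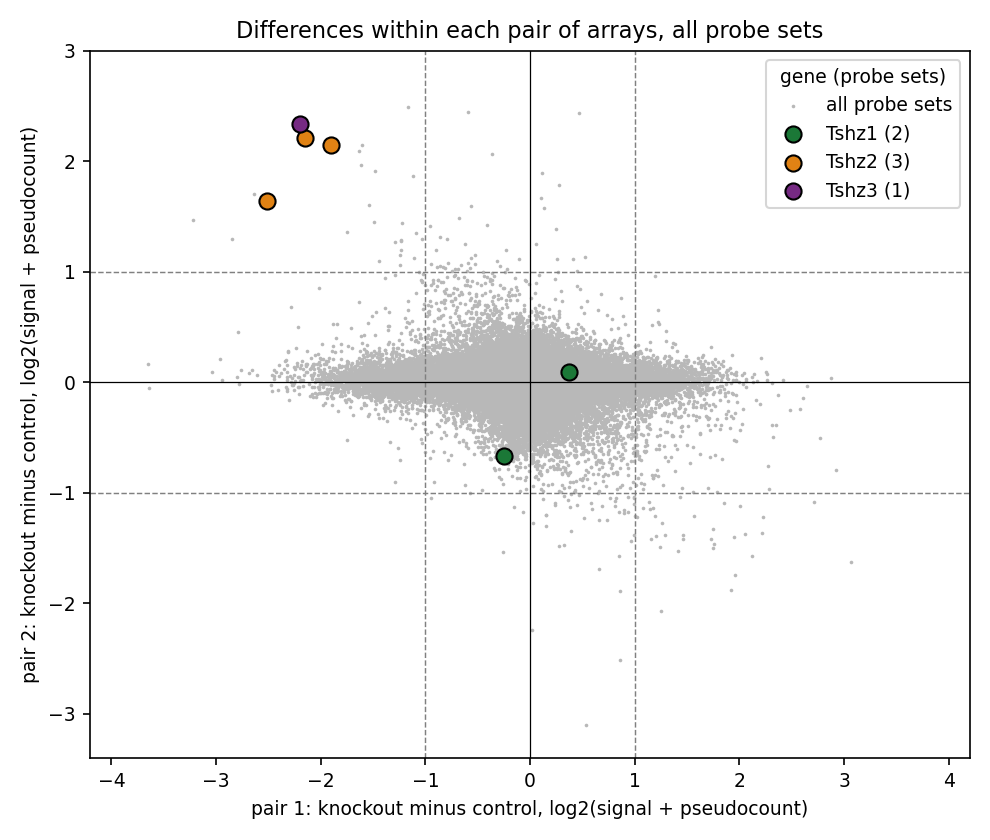
Log2 difference, knockout minus control, in pair 1 (horizontal axis) and pair 2 (vertical axis) for all 45037 probe sets (grey), with the teashirt probe sets in colour and dashed lines at a log2 difference of 1 either way. The Tshz2 and Tshz3 points lie between -2.52 and -1.91 in pair 1 and between 1.64 and 2.34 in pair 2, in the upper left, whereas both Tshz1 points lie inside the dashed lines.

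Since the pairs went opposite ways, the difference over all 4 arrays was near 0 for Tshz3, at 0.07 ± 3.21 (SD of the pair differences, n = 2). For Tshz2 it was 0.12 ± 2.86 at 1435385_at, 0.03 ± 3.08 at 1428026_at and -0.44 ± 2.94 at 1459250_at. For Tshz1 it was -0.46 ± 0.29 at 1427233_at and 0.23 ± 0.20 at 1427232_at. The limma fit over all 45037 probe sets, with Benjamini-Hochberg adjustment, called 0 of them (0%) at an adjusted p of 0.05, and 25 were under an unadjusted p of 0.05. It thus also called 0 of the 6 teashirt probe sets. The 2 scales entered the error of this fit, so its count of 0 does not show that the genes did not differ.

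The genes most like each teashirt gene were looked up among the 12581 genes whose mean was over the 40th percentile. Likeness was measured as the root-mean-square distance between the 2 pair differences of 2 genes, over 4 arrays, with each gene given by its brightest probe set. The distance uses the differences by which Tshz2 and Tshz3 were chosen, so their closeness follows from that choice. The gene closest to Tshz3 was Tshz2, at a distance of 0.25, followed by Nts, the precursor of the peptide neurotensin, at 0.44, and the orphan nuclear receptor gene Nr4a2 at 0.49. Slc26a7, an anion transporter gene, was at 0.59 and the thyroid hormone deiodinase gene Dio2 at 0.70. From Tshz2 the same 5 places went to Nts at 0.21, Nr4a2 at 0.24, Tshz3 at 0.25, Slc26a7 at 0.34 and Dio2 at 0.46. A likeness over 4 arrays is a description of those arrays.

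Of these neighbours, Slc26a7 had a signal of 197 on knockout 1 against 607 on control 1, and 268 on knockout 2 against 47.1 on control 2. Nts had a signal of 7002 on knockout 1 against 21361 on control 1, and 5950 on knockout 2 against 1314 on control 2. Control 1 and knockout 2 were again the high arrays of their pairs. Tshz1 was far from both relatives, at a distance of 2.31 from Tshz2 and 2.53 from Tshz3. By 1427233_at, its own closest gene was Gstp1, a glutathione transferase gene, at 0.01. The iron-sulphur cluster gene Nfu1 and the elongation factor gene Elof1 were at 0.02 each. The G protein subunit gene Gng3 and the methionine sulphoxide reductase gene Msrb1 were at 0.03 each. The other Tshz1 probe set had the opposite sign in both pairs, so these neighbours hold for 1427233_at only.

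**Figure D3:**
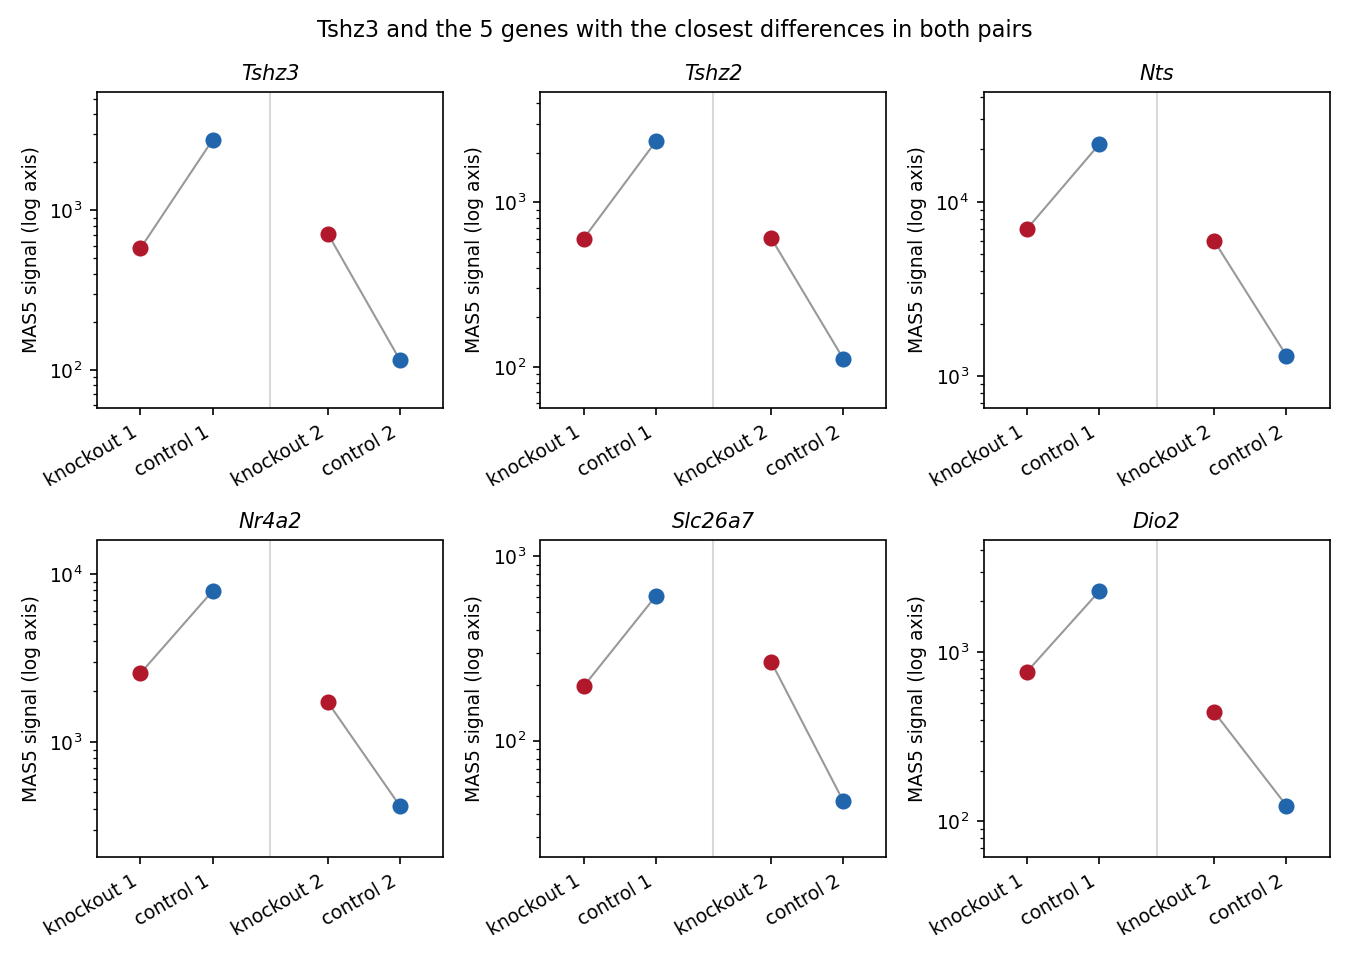
MAS5 signal (log axis, a range of its own in each panel) of Tshz3 and of the 5 genes with the closest pair differences, Tshz2, Nts, Nr4a2, Slc26a7 and Dio2, by brightest probe set; each point is 1 array, red for knockout and blue for control, and lines join arrays of 1 replicate number. In every panel the control array is the higher one in pair 1 and the knockout array in pair 2.

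Genes tied to the teashirt proteins in earlier work did not share the order as a list. Of 16 measured partners and co-regulators, 4 had the order of Tshz3 (lower in pair 1, higher in pair 2), against 29.4% of all genes, and 3 had the reverse order, against 23.6%. A further 7 were lower in both pairs and 2 higher in both. Their medians were -0.15 in pair 1 and -0.07 in pair 2, beside -0.04 and 0.01 over all 18193 genes. Over 2-fold apart were 2 of the 16 in pair 1, where 9.03% of all genes were, and 1 in pair 2, where 0.467% were. Differences of the corepressor genes were small. Ctbp1, whose relative in Drosophila binds Teashirt, was at 0.01 and -0.13, and Ctbp2 at -0.11 and -0.36. The histone deacetylase gene Hdac1 was at 0.22 and -0.22, and Hdac2 at -0.19 and 0.03. Apbb1, whose protein FE65 binds TSHZ3 in human cells, was at -0.04 and -0.18, and Set, of the same complex, at -0.20 and -0.10.

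Among the homeodomain partners the widest difference was at Meis2, a TALE homeodomain gene related to the Drosophila Teashirt partner homothorax. Its signal was 2396 on knockout 1 against 962 on control 1, and 256 on knockout 2 against 719 on control 2. Meis2 thus ran against Tshz2 and Tshz3, with knockout 1 and control 2 as the high arrays and log2 differences of 1.29 and -1.38. Pax6, relative of Drosophila eyeless, was at 308 on knockout 1 against 712 on control 1, and at 193 on knockout 2 against 130 on control 2, the same order as Tshz3 with log2 differences of -1.13 and 0.47. Pbx2, a further TALE gene, was at -0.36 and -0.21. Prokr2, a receptor gene that depends on Tshz1 in the mouse olfactory bulb, was at -0.57 and -0.03. Sox9, a partner of TSHZ3 in ureter development, was at -0.59 and 0.10. Myocd, the smooth muscle co-activator with which TSHZ3 interacts there, lay at or below percentile 23.6 on every array.

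Of 7 other homeodomain factor genes, most of them with zinc fingers as well, 4 had the order opposite to Tshz3, 1 had its order and 2 were higher in both pairs, with medians of 0.71 and -0.30. The 4 were Zeb2, which encodes a repressor needed in cortical and hippocampal development, at 1.63 and -0.65, and the ATBF1-type genes Zfhx2 at 0.83 and -0.30, Zfhx3 at 0.81 and -0.44 and Zfhx4 at 0.71 and -0.36. The Zfhx signals were dim, between 30.5 and 220 on all arrays, while Zeb2 was at 2683 on knockout 1 against 847 on control 1, and at 801 on knockout 2 against 1272 on control 2.

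**Figure D4:**
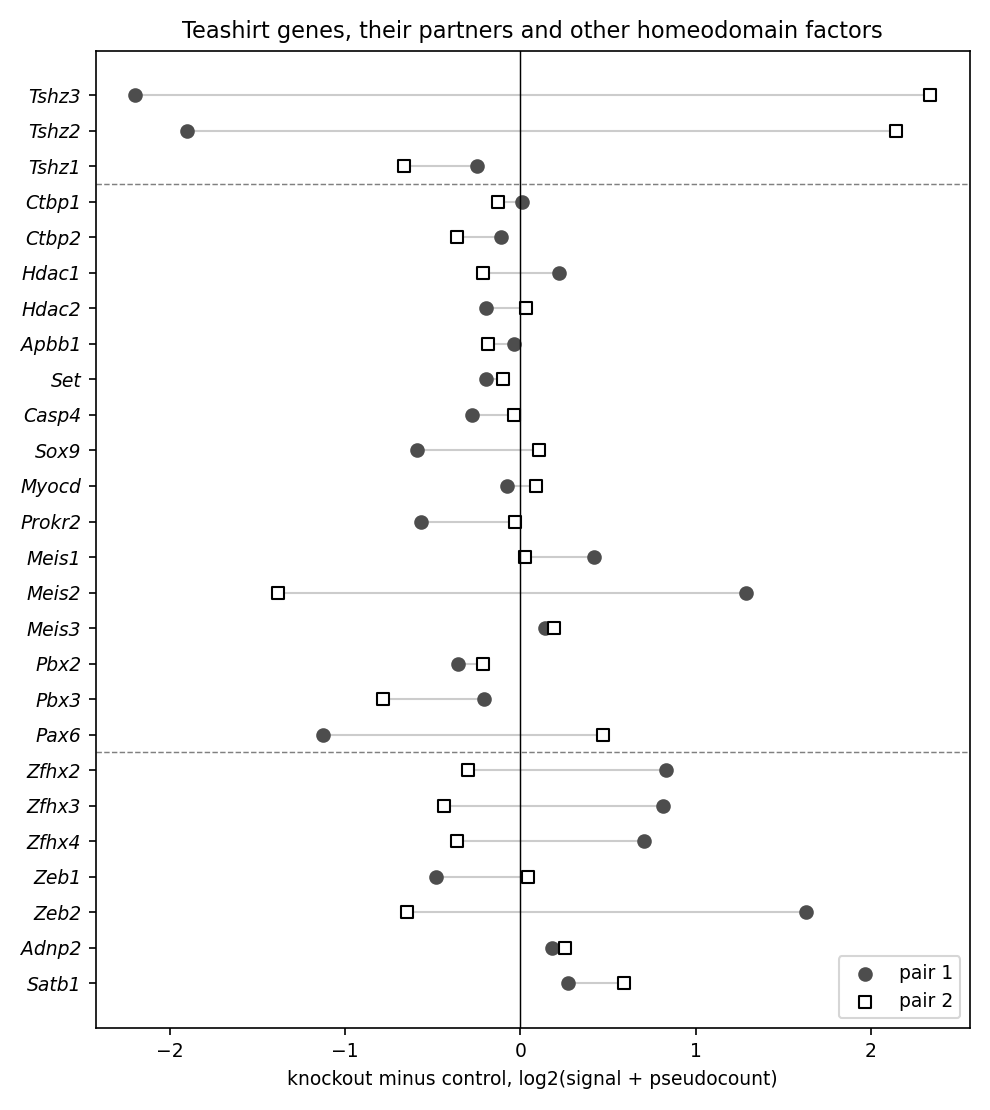
Log2 difference, knockout minus control, in pair 1 (filled circles) and pair 2 (open squares) for the brightest probe set of each teashirt gene (top), 16 partner genes (middle) and 7 other homeodomain factor genes (bottom). Tshz3 and Tshz2 span -2.20 to 2.34 and -1.91 to 2.14, wider than any other gene drawn, and Meis2 runs the other way from 1.29 to -1.38.

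Markers of neighbouring cortex held members in the directions of Tshz2 and Tshz3 and members in the reverse ones. In bulk tissue, fewer cells of a type and less RNA per cell cannot be told apart. Of 16 measured genes of deep-layer and near-projecting cortical neurons, 9 had the order of Tshz3 (8 after quantile normalization), against 29.4% of all genes, and 2 had the reverse, Crym and Foxp2, with medians of -0.20 and 0.70. Over 2-fold apart were 2 of the 16 in pair 1, against 9.03% of all genes, and 4 in pair 2, against 0.467%. The summed signal of the 16 was 39769 on knockout 1 against 44041 on control 1, and 14718 on knockout 2 against 13351 on control 2. These sums hung on single bright genes. Nr4a2 was at 2559 on knockout 1 against 7901 on control 1, and Crym at 10892 against 5441. With Nr4a2 left out, the sum was higher on knockout 1 in pair 1 and nearly equal on the arrays of pair 2. Beside Nr4a2, these 9 included Zfpm2, which encodes a GATA cofactor, at -1.03 and 1.29, and the corepressor gene Tle4 at -0.88 and 0.93, while Crym, for a thyroid hormone binding protein, ran the other way at 0.997 and -1.10. Of 12 measured genes of subiculum and retrosplenial cortex, Tshz2 itself left out, 7 had the order of Tshz2, against 29.4% of all genes. The reverse was seen at 2, Lxn and Cbln1, against 23.6% of all genes, and medians were -0.48 and 0.12. The summed signal of these 12 was 41477 on knockout 1 against 65698 on control 1, and 13250 on knockout 2 against 10181 on control 2. Nts and Nr4a2, both named above for their likeness to Tshz2 and Tshz3, carried much of this contrast. Nts alone was at 5950 on knockout 2 against 1314 on control 2. With both genes left out, the sum of the rest was higher on the control array in both pairs. The lists share Nr4a2, and the part of such cells in the teashirt values was not tested.

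Genes of the hippocampal fields did not run with the teashirt genes as a list, with 2 of 18 in their order and 7 in the reverse. Over all genes, 29.4% had the order of Tshz3 and 23.6% the reverse, the shares to set beside every list here. Medians of the hippocampal field genes were 0.26 and -0.03. Interneuron, striatal and amygdalar genes, a list fitting the known sites of Tshz1, had 0 of 17 in that order and 11 in the reverse, with medians of 0.37 and -0.54. Smooth muscle and pericyte genes, a known site of Tshz3 outside the brain, had 3 of 12 in that order and medians of -0.24 and -0.05. The liver list had 7 of 12 in that order and medians of -1.89 and 0.03. In pair 1, 11 of the 12 were over 2-fold apart, against 9.03% of all genes, and in pair 2 only 1, Ttr, against 0.467%. Leaving Ttr aside, the pair 2 differences of this list lay between -0.10 (Fgb) and 0.11 (Apob). The median percentile of the list was 70.4 on knockout 1 against 91.0 on control 1, and 18.1 on knockout 2 against 15.4 on control 2. Ttr, which choroid plexus also makes, stood apart in this list at 0.24 and 1.39, with 9232 on knockout 2 against 3505 on control 2. The part of liver RNA in the teashirt values was not tested. Medians were -0.13 and -0.11 for 11 meningeal and fibroblast genes, -0.31 and -0.14 for 11 microglial and endothelial genes, and 0.65 and 0.41 for 8 choroid plexus genes, with 3, 2 and 1 in the order of Tshz3.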

How the data were processed

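The deposited values were probe set intensities on a linear scale, made by the authors with MAS5, per the submitters' processing notes. The version, scaling target and detection calls are not given in the sources used here. Probe sets were named from the platform annotation: 34945 had 1 gene symbol, 932 several and 9160 none, and only those with 1 were named. No probe coordinates were used. Signals were transformed as log2(signal + 32.6), the pseudocount being the 20th percentile of all values, with the authors' scaling kept. The number of arrays limits the precision. Values within a pair carry no test. limma 3.58.1 in R 4.3.3 (lmFit, eBayes with trend, no covariate, no filter) was run on all probe sets. It was also tried on simulated data, with an outcome not reported here. A gene was represented by its brightest probe set. All member probe sets were named, with the 5 nearest genes of each, up to 4 genes of a list with the widest smaller difference, and further list members chosen after their values were seen. Alternatives were the pseudocount, a floor of 1, quantile normalization, centring, scaling to 1 trimmed mean, filters, eBayes settings, the replicate block and leaving out each array. The members and the 11 gene lists were chosen with earlier results of these data known.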

Additional observations from a re-analysis of the deposited data

How the results depend on the processing

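All 42 recomputed pair values of Tshz2 and Tshz3 kept their sign under another pseudocount, a floor of 1, quantile normalization, centring, scaling to 1 trimmed mean and, for Tshz2, the mean of its probe sets. In pair 2 the floor of 1 without pseudocount gave 2.63 for Tshz3 and 2.44 for Tshz2 (1435385_at), and quantile normalization gave 2.90 and 2.70. The first shift is by construction, since a pseudocount makes differences smaller. The cause of the shift under quantile normalization was not tested. For 1459250_at, pair 1 lay between -5.40 and -1.80 and pair 2 between 1.25 and 2.78, around 1.64. For Tshz1, the mean of its probe sets gave 0.062 in pair 1, the opposite sign to 1427233_at, and -0.29 in pair 2. The number of probe sets called stayed at 0 under every alternative run, and with the replicate block 366 were under an unadjusted p of 0.05 in limma. Nothing in the labels ties a replicate number to a litter or day. The departures of knockout 1 and control 1 from the mean of their group correlated at 0.842 across probe sets. Under the replicate block the estimates over 4 arrays were the same (0.07 for Tshz3, 0.12 for Tshz2, -0.46 for Tshz1), and it changed no call. Leaving out 1 array moved them to between -2.05 and 2.19 for Tshz3, -1.90 and 2.14 for Tshz2 and -1.68 and 0.77 for Tshz1. Each of these fits set 1 array against the mean of 2 arrays on different scales, so the scales entered these values. Within pairs, Tshz1 at 1427233_at was at -0.25 and -0.66. The lowest value of Tshz3 and of Tshz2 was without control replicate 2, and the highest without control replicate 1, while without either knockout array they were between -0.074 and 0.21 for Tshz3 and at 0.11 and 0.12 for Tshz2. For Tshz1 the lowest was without knockout replicate 1 and the highest without knockout replicate 2. With the pseudocount at the 40th percentile Tshz3 over 4 arrays was -0.015, by construction of the pseudocount. Medians of the 11 gene lists kept their sign in both pairs under the 5 alternative scalings and pseudocounts. Some counts changed under them. The reverse count lay between 6 and 8 for the hippocampal fields and between 11 and 12 for interneuron, striatal and amygdalar genes. In the order of Tshz3 were 6 liver genes after centring, and 4 microglial and endothelial genes after scaling to 1 trimmed mean. Quantile normalization turned the sign of small values at Ctbp1 (pair 1) and Set (pair 2).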
